A study of Mus musculus with 6 samples.

Results

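The genes described here are 9 members of the E protein, Id protein and basic helix-loop-helix (bHLH) repressor families, out of 23061 annotated genes that could be placed in NCBI Build 37 (mm9) of the mouse genome. They were chosen by name: the E proteins Tcf3, Tcf4 and Tcf12, the Id proteins Id1, Id2, Id3 and Id4, and the repressors Twist1 and Msc. Their reads were examined in ChIP-seq of wild type C57BL/6 myotubes, which were grown from limb muscle myoblasts of E18.5 fetuses at passage 17 and held in DMEM with 2% horse serum for 48 hours to differentiate. Chromatin was precipitated with an antibody against the transcription factor Sox6 or with one that recognises phosphorylated RNA polymerase II (Pol II), the form found on transcribed genes, and input DNA was sequenced beside them. There were 2 libraries of each of these 3 kinds, all from the same kind of cell, so that each comparison is between a ChIP and input. The study's methods call the ChIPs of a kind independent experiments, without saying whether separate cultures were used. The limma p-values and standard errors (SE) rest on the spread between these libraries, which may in part be technical. That spread is pooled over regions of similar read level, so an SE is not the scatter of a region's own libraries alone.

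Proteins of the bHLH class bind DNA as pairs, at short sites called E-boxes. E proteins are the widely expressed partners with which the muscle factors MyoD and myogenin bind DNA and switch on muscle genes. Id proteins lack the basic region that contacts DNA, and hold E proteins in pairs that cannot bind, which delays differentiation. Twist1 and Msc (musculin, also called MyoR) are bHLH factors known for holding back myogenic transcription, by occupying E proteins or E-boxes. The gene symbol Tcf4 stands here for the E protein also called E2-2, and not for the Wnt pathway factor Tcf7l2.

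Sox6 peaks outside Tcf4 gave the sequences that a reader can examine, 300 bp around each peak centre. The authors called Sox6 peaks in each replicate and deposited a list of 1066 peaks common to both. Capitals mark matches, on either strand, to the Sox sequences ACAAAG and ACAATG and to the E-boxes CAGCTG and CAGGTG. All are written 5′ to 3′ on the plus strand of NCBI Build 37. The first is the common peak in an intron of Tcf12, at chr9:71722641-71722940, and the second the common peak upstream of Msc, at chr1:14765331-14765630. The third, at chr9:71709511-71709810, was called in replicate 2 only, in another intron of Tcf12.
Tcf12 common peak: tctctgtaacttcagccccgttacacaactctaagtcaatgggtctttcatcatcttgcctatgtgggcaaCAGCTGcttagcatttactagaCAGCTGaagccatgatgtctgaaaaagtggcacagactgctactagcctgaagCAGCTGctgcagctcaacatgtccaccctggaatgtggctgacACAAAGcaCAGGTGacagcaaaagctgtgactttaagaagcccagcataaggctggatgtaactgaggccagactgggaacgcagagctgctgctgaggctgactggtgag
Msc common peak: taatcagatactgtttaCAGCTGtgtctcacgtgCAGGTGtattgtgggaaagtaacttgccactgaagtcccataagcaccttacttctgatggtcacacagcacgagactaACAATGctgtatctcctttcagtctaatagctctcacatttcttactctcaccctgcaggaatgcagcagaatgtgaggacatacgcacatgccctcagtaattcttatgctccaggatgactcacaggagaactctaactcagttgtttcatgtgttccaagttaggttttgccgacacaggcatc
Tcf12 replicate 2 peak: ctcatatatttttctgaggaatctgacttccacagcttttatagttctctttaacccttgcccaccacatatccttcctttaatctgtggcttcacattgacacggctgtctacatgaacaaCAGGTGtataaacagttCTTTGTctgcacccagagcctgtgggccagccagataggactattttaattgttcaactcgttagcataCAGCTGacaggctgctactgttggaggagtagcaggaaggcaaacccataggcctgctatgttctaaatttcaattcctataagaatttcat

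The Tcf12 common peak held 4 E-box matches and 1 Sox match, which lay 2 bp from the nearest E-box. Over all common peaks, a Sox and an E-box match within 10 bp of each other were found in 8.16% of the 300 bp windows, and in 1.69% of windows 2 kb to either side. The Msc common peak held 2 E-box matches and 1 Sox match, 73 bp apart at the nearest. The replicate 2 peak of Tcf12 held 2 E-boxes and 1 Sox match. Such matches are frequent at these peaks: 65.9% of the 1066 common windows held a Sox match against 36.7% of the 2132 flanking windows, and 76.0% held an E-box match against 31.5%. Both were present in 51.0% of common windows and 10.98% of flanking windows. A match here is a description of the letters and does not show that a factor was bound.

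Sox6 peaks were found at 3 of the 9 genes. Tcf4 had 4 common peaks in or within 20 kb, Tcf12 had 1 and Msc had 1, while Tcf3, all 4 Id genes and Twist1 had none in any of the 3 Sox6 peak lists. Of all annotated genes, 4.33% had a common peak in or within 20 kb. Gene length bears on that share: it was 15.1% among the 697 genes of 250 kb or more, which include Tcf4 and Tcf12, and 1.64% among the 5976 genes under 5 kb, which include Msc, Twist1 and the Id genes. Only 6 of all the genes had 4 or more common peaks, and Tcf4 is 1 of 2 such genes among those of 250 kb or more. At the edge of the rule, the Msc common peak lay 19.4 kb outside its gene, and the nearest peak left out was a replicate 2 peak 23.4 kb past the end of Tcf3, with 2 and 7 Sox6 reads in the 2 replicates.

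The Tcf12 peak, deposited as chr9:71722722-71722861, lay in intron 13 of the longest annotated transcript, 237 kb from its start and 21.1 kb from the start of the short annotated transcript. In a 450 bp window at its centre, the Sox6 libraries held 30 and 16 reads and the inputs 12 and 26, although the inputs were sequenced far more deeply. Scaled to reads per 1000000 of the library (RPM) these were 10.05 and 10.89 for Sox6 against 0.546 and 1.07 for input. Windows of the same size 2 kb to either side averaged 0.335 and 0.340 RPM in the Sox6 libraries. Both Sox6 libraries stood above both inputs and above their own flanks. Sox6 stood over input by a log2 ratio of 3.76 ± 0.44 (pooled SE, n = 2 against 2), more than at 62.4% of common peaks. The peaks were called on these same Sox6 reads, so this value describes the peak and is no separate test of it.

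Pol II, which played no part in choosing the peak, was also high at this site. The Pol II libraries gave 12 and 17 reads, or 7.80 and 6.15 RPM, against 0.650 and 1.09 RPM in their flanks. Each value exceeded both inputs, and a Pol II peak of each replicate overlapped the Sox6 peak. Pol II exceeded input by 3.19 ± 0.43 on the log2 scale, or 9.10-fold (limma, adjusted p = 2.53e-12). Ranked by that ratio, the site stood above 85.4% of the common Sox6 peaks tested. The gene Cgnl1 has its start 103 kb from the peak, nearer than the main start of Tcf12, and its Pol II signal over the gene was below input at 0.381 and 0.412 RPKM against 0.569 and 0.585 (log2 ratio −0.54 ± 0.09, limma adjusted p = 0.000705).

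Of the 6 common peaks at these genes, Pol II was higher than input at 3, where 58.8% of all common peaks were called higher by the same test. With each library centred on its median, the call held at the Tcf12 peak and was lost at both Tcf4 peaks, and over all common peaks 122 were then higher and 62 lower in place of 623 and 16. All 6 had more Sox6 than input, as did 96.7% of all common peaks, which follows from how peaks are called. The median Sox6 enrichment, as a log2 ratio, was 3.16 at these 6 and 3.52 over all common peaks. For Pol II the median was 1.79 at these 6 and 1.79 over all.

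The 3 Sox6 peaks inside Tcf4 lay in introns 3, 4 and 5, at 71.2, 118 and 125 kb from the start of the longest transcript, and the fourth lay 17.0 kb past the end of the gene. The peak at 125 kb, in intron 5, had 12 Sox6 reads in each replicate, which are 4.02 and 8.17 RPM, against 0.637 and 0.495 RPM of input. Its Pol II reads were 7 and 13, or 4.55 and 4.71 RPM, where the flanks averaged 0.975 and 2.53 RPM. Both Pol II libraries were above their flanks and above both inputs. Pol II exceeded input by 3.06 ± 0.49 on the log2 scale (limma, adjusted p = 2.94e-09, and 0.101 with centring), a Pol II peak of replicate 2 overlapped the site, and the nearest of replicate 1 lay 130 bp away.

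The other Tcf4 sites carried less Pol II. At 118 kb the Sox6 libraries held 6 and 5 reads (2.01 and 3.40 RPM) and the Pol II libraries 3 and 6 reads (1.95 and 2.17 RPM). Pol II was 2.35 ± 0.63 above input on the log2 scale (limma, adjusted p = 0.00052), but its flanks held 2.27 and 1.27 RPM, so that in replicate 1 the site did not stand above its surroundings. That limma call was lost without either input library (adjusted p = 0.0574 and 0.0516) and with centring (adjusted p = 0.702). At 71.2 kb the Sox6 libraries held 9 and 11 reads (3.01 and 7.49 RPM). Pol II held 2 and 3 reads there (1.30 and 1.09 RPM), below its flanks in both replicates, which averaged 2.27 and 1.45 RPM. Pol II over input there came to 1.20 ± 0.66 on the log2 scale (limma, adjusted p = 0.104). Past the end of the gene the Sox6 libraries held 9 and 7 reads (3.01 and 4.77 RPM), while only 1 Pol II read was found over both libraries, against 20 and 15 of input (log2 ratio −0.88 ± 0.86, limma, adjusted p = 0.388). The start of Ccdc68 lies 220 kb from that last peak, nearer than the main start of Tcf4, and Ccdc68 had Pol II below input over its body (log2 ratio −1.36 ± 0.16, limma, adjusted p = 6.39e-05). The bars of reads at the Sox6 peaks show the sites together.

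**Figure D1:**
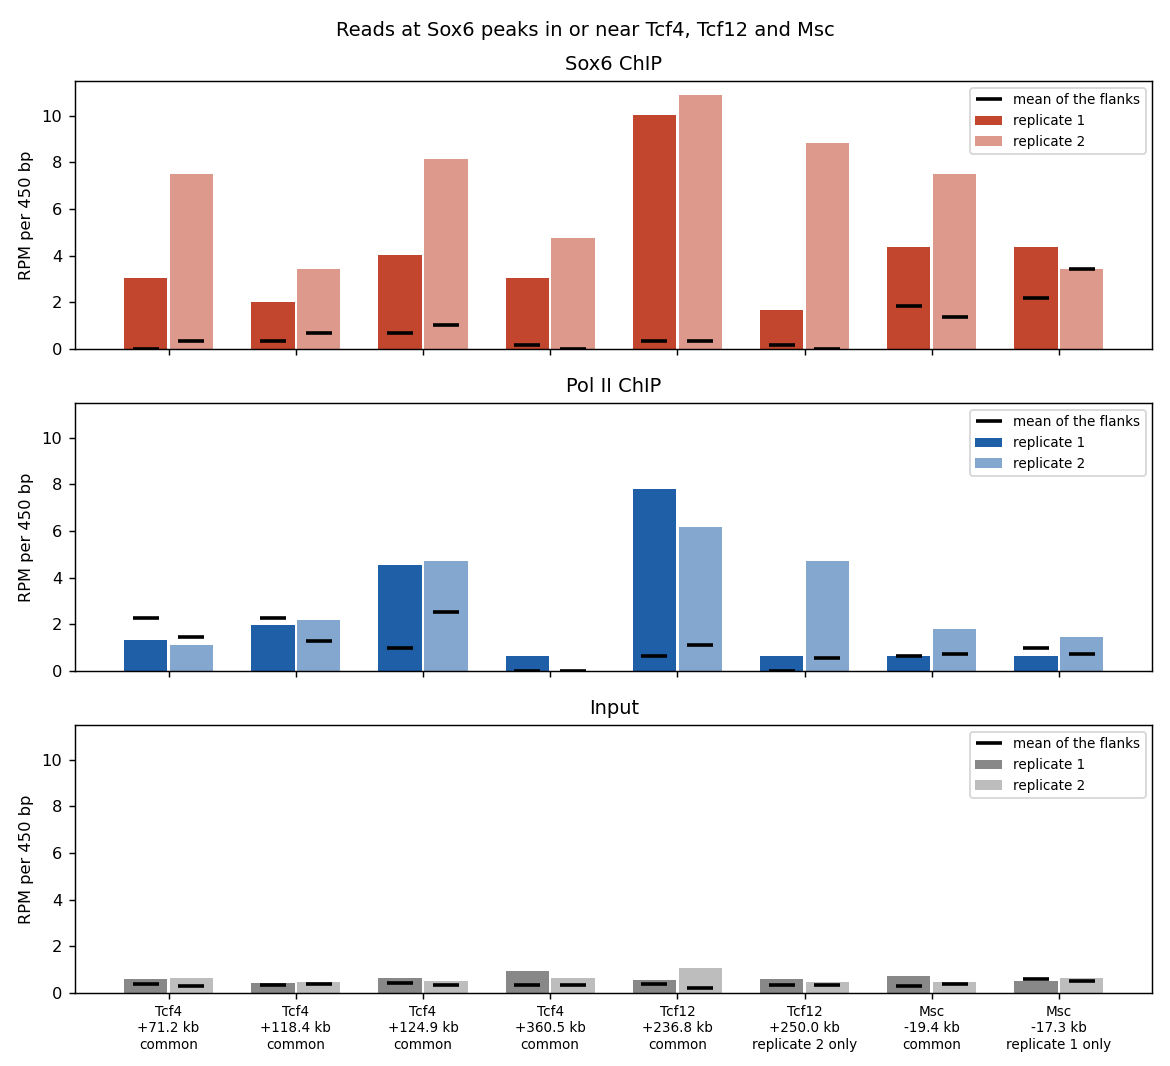
Reads per 1000000 of the library (RPM) in 450 bp at the Sox6 peaks described in or within 20 kb of Tcf4, Tcf12 and Msc, in the Sox6, Pol II and input libraries; black dashes are the mean of the 2 windows lying 2 kb to either side in the same library, and distances are from the annotated start of the gene. Pol II stands above its flanks in both replicates at the common Tcf12 peak and the Tcf4 peak at 125 kb and also, with 1 read against 0 in replicate 1, at the other Tcf12 peak, the flanks of each Msc peak take in reads of its neighbour, and the inputs stay at or below 1.07 RPM.

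Motif matches also differed among the Tcf4 windows. The window at 125 kb held 3 Sox and 3 E-box matches, the nearest pair 3 bp apart, and that at 118 kb held 1 of each, 130 bp apart. The windows at 71.2 kb and past the end of the gene held neither. The counts depend on where the window is centred: around the peak centres of replicate 2, the window at 125 kb held 1 of each, 140 bp apart, and that past the end of the gene held 2 Sox matches. At the Msc common peak, the window around the replicate 1 centre held its Sox match and no E-box.

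Upstream of Msc, Sox6 peaks were called at 17.3 and 19.4 kb from its start, and no other gene of the annotation used had a start nearer to them. The common peak at 19.4 kb held 13 and 11 Sox6 reads, or 4.35 and 7.49 RPM, against 16 and 11 input reads, or 0.728 and 0.454 RPM. Pol II held 1 and 5 reads there (0.650 and 1.81 RPM), and its log2 ratio to input of 1.22 ± 0.67 did not pass the test (limma, adjusted p = 0.104). The peak at 17.3 kb was called in replicate 1 only. Its test on replicate 2 is not free of selection, since the lack of a call there set the site apart. Replicate 2 held 5 Sox6 reads there against 15 input reads, a log2 ratio of 2.55 (exact two-sided binomial test of those 2 libraries, adjusted p = 0.00846), which with the deposited interval alone fell to 2 against 5 reads (adjusted p = 0.126). The test compares 1 ChIP library with 1 input library and covers counting error only. In replicate 2 the site held 3.40 RPM of Sox6 and its flanks averaged 3.40 RPM, though the flanks take in reads of the neighbouring peak.

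The replicate 2 peak in Tcf12, 250 kb from the start in intron 16, had few reads in the other replicate. Replicate 1 held 5 Sox6 reads there against 13 input reads, a log2 ratio of 1.58 (exact two-sided binomial test, adjusted p = 0.0642), and with both inputs pooled the adjusted p was 0.0349, again for counting error only. Repeated positions counted once gave an adjusted p of 0.0546 by the same exact test, and the deposited interval alone held 0 Sox6 reads and 1 input read. Replicate 2, in which the peak was called, held 13 Sox6 reads. Pol II held 1 read in replicate 1, where its flanks held 0, and 13 in replicate 2. In both ChIPs the libraries numbered 2 were the higher ones, at 8.85 RPM of Sox6 and 4.71 RPM of Pol II, against 1.67 and 0.650 RPM in those numbered 1. Counting the peaks that underlie the common ones, 7 of 7 peaks of replicate 1 described at these genes were higher than input in replicate 2 by that binomial test, where 67.0% of the whole list was, and 6 of 7 peaks of replicate 2 were higher than input in replicate 1, where 84.4% of the list was. Common peaks had to be present in both replicates, so for those this count is fixed by the choice. A peak of 1 replicate only lacked a call in the other, which also bears on its reads there.

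Pol II density over the gene bodies differed widely among the 9 genes. Read densities, as RPM per kilobase of gene (RPKM), were highest on Id1 and Id3, intermediate on the 3 E proteins and Id2, lower on Msc and Id4, and 0 on Twist1. Id1 held 6.72 and 7.18 RPKM of Pol II and Id3 held 5.83 and 5.54, against 0.336 to 0.609 RPKM of input. Next came Tcf4 at 2.63 and 2.71, Tcf3 at 2.21 and 1.79, Id2 at 1.98 and 1.74 and Tcf12 at 1.54 and 1.60 RPKM. Msc held 0.496 and 0.967, Id4 0.249 and 0.555, and Twist1 no Pol II read in either library. The 2 replicates of Tcf3 and Id2 overlapped, as did those of Msc and Id4, and no other neighbours in this order did. The order is one of density alone: as a log2 ratio to input, Msc at 1.39 ± 0.55 lay above Tcf12 at 0.94 ± 0.08, since input held 0.313 and 0.283 RPKM on Msc and 0.871 and 0.770 on Tcf12. Actb, the gene of cytoplasmic actin and a reference for strong transcription, held 26.4 and 35.8 RPKM. In chromatin of a whole culture, fewer cells with Pol II on a gene and less Pol II in each cell cannot be told apart.

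**Figure D2:**
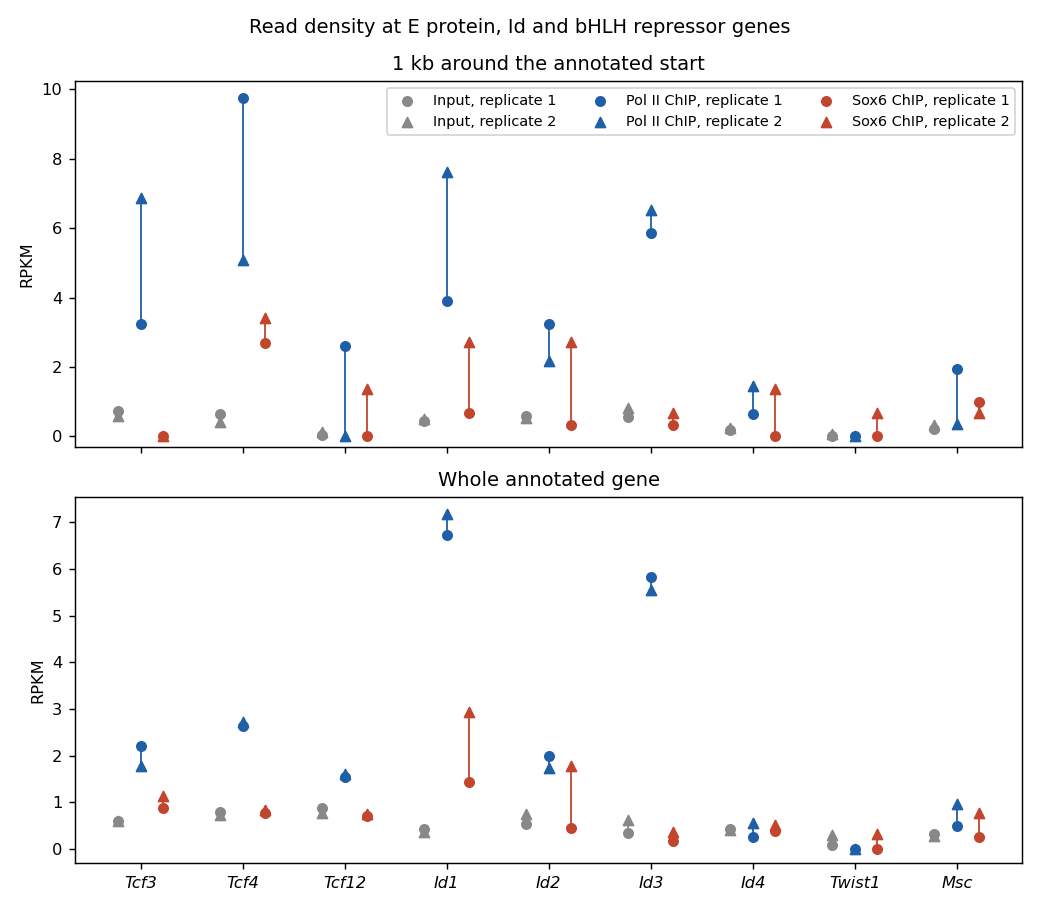
Read density in RPKM for each of the 9 genes in the 6 libraries, in 1 kb around the annotated start (top) and over the whole gene (bottom); circles are replicate 1, triangles replicate 2, and a line joins the 2 replicates of a kind. Over whole genes Pol II lies highest on Id1 and Id3, between 1.54 and 2.71 RPKM on Tcf3, Tcf4, Tcf12 and Id2, and at 0 on Twist1.

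Against input, Pol II was higher over the body of 6 of the 9 genes, beside 39.0% of all genes tested. Over all genes 8186 were higher and 5119 lower, and with each library centred on its median 6180 were higher and 7450 lower. The genes were Tcf3, Tcf4, Tcf12, Id1, Id2 and Id3, and none of the 9 was called lower. The median log2 ratio of the 9 was 1.62, beside 0.17 over all 21011 genes tested. At the annotated starts, 7 of the 9 had enough reads to test, and 6 of the 7 were higher than input, beside 47.1% of all starts tested. The median log2 ratio was 2.91 for those 7 and 1.41 for all starts. The inputs are deeper than the ChIP libraries, and 0.5 reads added to each count raises the ratio of a region with few reads, and with a pseudocount equal in RPM the median over all starts was 1.02. Over all starts, 8834 were higher and 14 lower, with that pseudocount 7028 and 3313, and with centring 3816 and 3966. With centring, the starts of Tcf3, Tcf4, Id1 and Id3 and the bodies of all 6 called genes still passed the test, while the starts of Id2 and Id4 did not (limma, adjusted p = 0.264 and 0.46).

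Among the E proteins, Tcf4 had the highest Pol II density over its body. Its start did not stand apart from that of Tcf3, which was the higher of the pair in replicate 2, and the ratios of both bodies to input lay within about 1 SE of each other. The gene lies at chr18:69504164-69847579 on the plus strand and spans 343 kb. Its start held 15 and 14 Pol II reads in 1 kb, or 9.75 and 5.07 RPKM, against 14 and 10 input reads, or 0.637 and 0.412 RPKM. Pol II was 3.77 ± 0.43 above input on the log2 scale at the start (limma, adjusted p = 4.58e-17) and 1.82 ± 0.07 over the body (limma, adjusted p = 4.44e-08). The body value rested on 1392 and 2570 Pol II reads. Pol II peaks were called 13 times inside the gene in replicate 1 and 22 times in replicate 2, and inside the 24.1 kb of Tcf3 in neither. In or within 20 kb, the far shorter Tcf3 had 5 and 8 Pol II peaks, most of them past its end, and Tcf4 had 14 and 24.

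Pol II lay over the whole length of Tcf4. In 3 equal parts from the start, the gene held 2.76, 2.50 and 2.65 RPKM in replicate 1 and 2.81, 2.68 and 2.64 RPKM in replicate 2. In 10 kb bins the Pol II level of replicate 1 ran from 1.36 to 4.61 RPKM, and in both replicates the highest bin was the first. Of the other coding starts, that 249 kb into the gene held 9 and 14 Pol II reads and that 1.21 kb in held 4 and 16, beside 15 and 14 at the main start. Reads at a start inside the gene cannot be told apart from reads of polymerase that came from upstream.

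**Figure D3:**
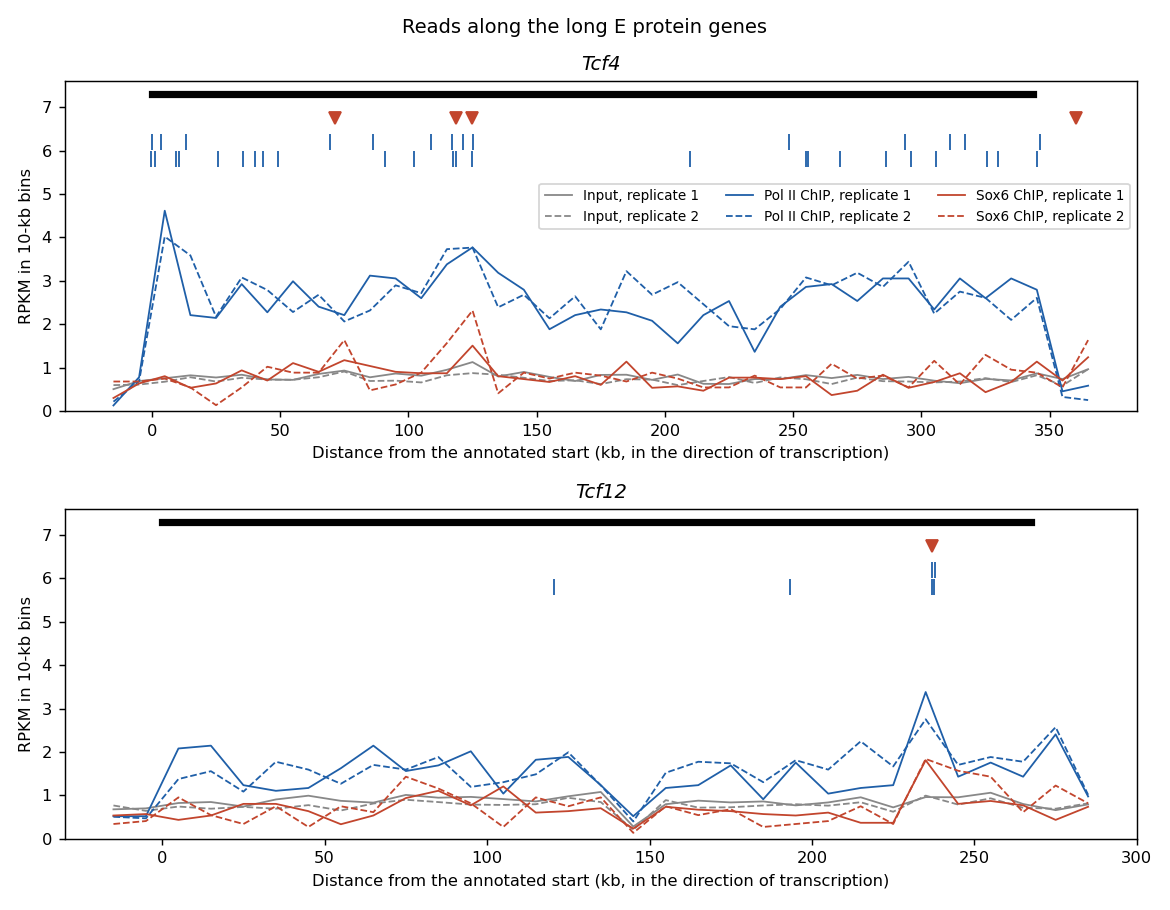
Read density in 10 kb bins along Tcf4 (top) and Tcf12 (bottom), by distance from the annotated start in kb; black bars are the genes, red triangles the common Sox6 peaks, and blue ticks the Pol II peaks of replicate 1 (upper row) and replicate 2 (lower row). Pol II stands above input across Tcf4 with its highest bin at the start, and its highest bin on Tcf12 is at 230 to 240 kb, where the Sox6 peak lies.

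Tcf12, at chr9:71692059-71959626 on the minus strand, had a lower and different profile. Its main start held 4 and 0 Pol II reads and only 1 and 3 input reads, where the median gene start had 8 and 10 input reads, so it was too poorly covered to test. Over the 268 kb body Pol II was 0.94 ± 0.08 above input on the log2 scale (limma, adjusted p = 6.09e-06), from 632 and 1180 reads. The highest 10 kb bin was the one from 230 to 240 kb in all 4 ChIP libraries. It held 3.38 and 2.75 RPKM of Pol II and 1.81 and 1.84 RPKM of Sox6. The median bins were 1.49 and 1.59 for Pol II and 0.636 and 0.749 for Sox6. The common Sox6 peak, called on these same Sox6 reads, lies in that bin, so its Sox6 level is no separate observation. The input of replicate 2 also had its highest bin there, at 0.994 RPKM, beside a median of 0.784. The start of the short transcript, 216 kb in, held 3 and 12 Pol II reads, against 31 and 22 of input.

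Tcf3, which encodes E12 and E47, lies at chr10:79872259-79896392 on the minus strand. Its start held 5 and 19 Pol II reads against 16 and 14 input reads, which are 3.25 and 6.88 RPKM against 0.728 and 0.577. Pol II was 2.91 ± 0.45 above input there (log2 ratio, limma, adjusted p = 5.54e-10) and 1.75 ± 0.14 above over the body (limma, adjusted p = 6.36e-06). A Pol II peak stood at the start in replicate 2 only. Both Pol II libraries were above both inputs at the start, though replicate 2 held more than 2 times the density of replicate 1.

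Id1 and Id3 carried the strongest Pol II signal of the Id genes. Id1, at chr2:152561987-152563146 on the plus strand, held 12 and 23 Pol II reads over its 1.16 kb against 11 and 10 input reads. Pol II was 4.13 ± 0.44 above input over the gene (log2 ratio, limma, adjusted p = 3.56e-05) and 3.53 ± 0.46 at the start (limma, adjusted p = 4.08e-13). Its body level exceeded that of 97.7% of all genes in replicate 1 and 98.0% in replicate 2, and its start level that of 82.9% and 96.1%. Id3, at chr4:135699412-135701307 on the plus strand, held 17 and 29 Pol II reads against 14 and 28 input reads, with log2 ratios of 3.65 ± 0.41 over the gene (limma, adjusted p = 4.83e-05) and 3.21 ± 0.42 at the start (limma, adjusted p = 1.63e-13). Pol II peaks were called at the starts of both genes in both replicates. Relative to Actb in the same library, Pol II over the body of Id1 was 25.4% and 20.05%, and that of Id3 was 22.1% and 15.5%.

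Id2 had less Pol II, and Id4 was not called over its body. Id2, at chr12:25778666-25780957 on the minus strand, held 7 and 11 Pol II reads against 27 and 41 input reads. Its log2 ratio was 1.62 ± 0.41 over the gene (limma, adjusted p = 0.00679), and without input replicate 1 the adjusted p was 0.0945. At its start the ratio was 2.31 ± 0.53 from 5 and 6 reads (limma, adjusted p = 5.55e-05). Id4, at chr13:48356796-48359405 on the plus strand, held 1 and 4 Pol II reads over the gene against 25 and 26 input reads, a log2 ratio of 0.16 ± 0.57 (limma, adjusted p = 0.825). Its start held 1 and 4 Pol II reads against 4 and 6 input reads (log2 ratio 2.43 ± 0.87, limma, adjusted p = 0.0123), and that call was lost without input replicate 1 (adjusted p = 0.186) and with a pseudocount equal in RPM (adjusted p = 0.152). No Pol II peak was called in or within 20 kb of Id2 or Id4.

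Neither bHLH repressor passed the test of Pol II against input, and a difference between them was not tested. Twist1, at chr12:34642536-34644682 on the plus strand, held 0 Pol II reads in both libraries against 4 and 15 input reads. Its input density of 0.0848 and 0.288 RPKM was itself low, above that of 8.49% and 21.6% of all genes, and its Pol II ratio to input was −0.58 ± 0.98 on the log2 scale (limma, adjusted p = 0.635). The sign and the call of that ratio turned on the pseudocount, with 1.15 (limma, adjusted p = 0.161) after adding 2 reads and −3.27 (limma, adjusted p = 0.0191, lower than input) with a pseudocount equal in RPM. A count of 0 allows up to 0.908 RPKM in replicate 1 and 0.506 RPKM in replicate 2, taking 3 reads as the limit and counting error only, limits that lie below the levels of Id1, Id3 and the E proteins, while in replicate 1 the levels of Id4 and Msc lie under the limit. Msc, at chr1:14743427-14746047 on the minus strand, held 2 and 7 Pol II reads against 18 input reads in each replicate, a log2 ratio of 1.39 ± 0.55 that missed the threshold (limma, adjusted p = 0.0513). Its Pol II density exceeded that of 53.1% of all genes in replicate 1 and 69.4% in replicate 2. At its start the ratio was 1.91 ± 0.85, from 3 and 1 reads (limma, adjusted p = 0.0532). Msc lay at the threshold, and passed it in 5 of 11 alternative settings at the start and in 3 of 12 over the body. In the plot of enrichment over input, Id1 and Id3 stand apart from the other genes over their bodies, which are short. At the starts they do not: Pol II averaged 7.41 RPKM on Tcf4, 6.18 on Id3, 5.75 on Id1 and 5.06 on Tcf3. In that order the replicates of each start overlapped those of the next.

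**Figure D4:**
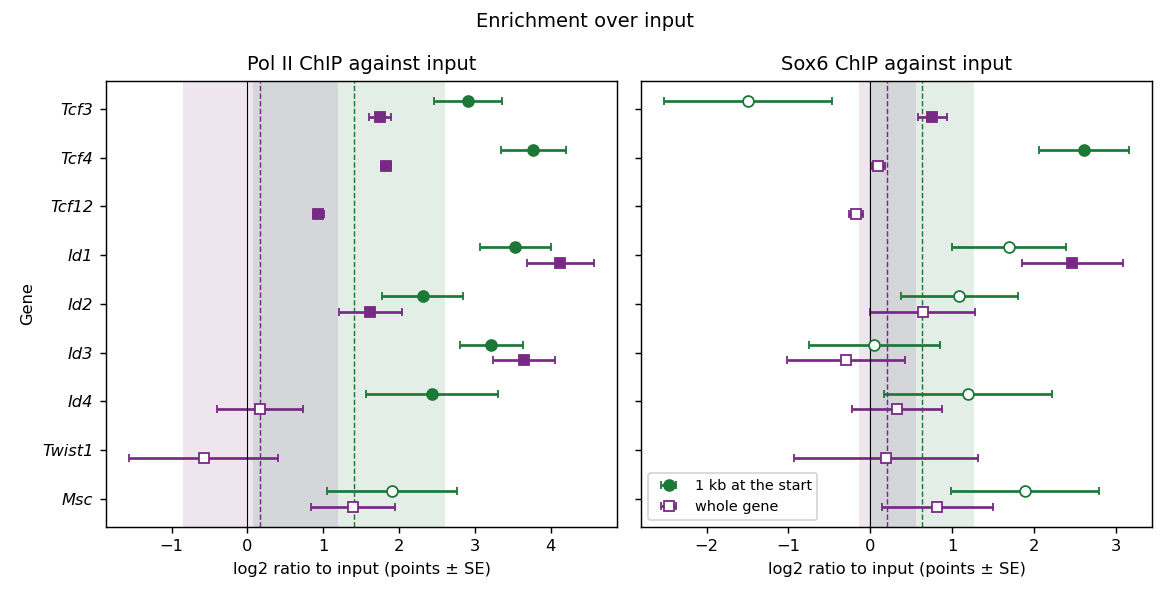
Log2 ratio of Pol II (left) and Sox6 (right) to input for each gene, as estimate ± SE of the limma fit to 2 ChIP and 2 input libraries. The SE is pooled over regions of similar read level. Circles are 1 kb at the start and squares the whole gene, filled where the limma adjusted p was below 0.05. Shading and dashed lines give the quartiles and median over all genes tested. Pol II ratios over the body reach 4.13 on Id1 and 3.65 on Id3, and Tcf4 is the 1 filled circle for Sox6.

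Sox6 reads were few at the starts and over the short genes. The Tcf4 start held 8 and 5 Sox6 reads, or 2.68 and 3.40 RPKM, against 0.637 and 0.412 RPKM of input. It was the 1 start of the 7 tested at which Sox6 passed the test against input (log2 ratio 2.61 ± 0.55, limma, adjusted p = 0.000644), beside 2.22% of all starts. The log2 ratios of Msc, Id1, Id4, Id2 and Id3 were 1.89, 1.69, 1.19, 1.09 and 0.05 and missed the threshold. Over all 18847 starts tested, the median ratio was 0.63 and the upper quartile 1.26. Adding 2 reads brought all but Id3 past the threshold (limma, adjusted p = 0.0109, 0.0156, 0.0255, 0.0360 and 0.149). The same setting gave 10433 calls over the 18847 starts, in place of 418. Without Sox6 replicate 1 the ratios of Id1, Id4 and Id2 were 2.63, 2.86 and 2.39, and without Sox6 replicate 2 they were 0.75, −0.48 and −0.22. That of Id3 changed sign in 5 of 13 alternatives. At the Tcf4 start no Sox6 peak was called in either replicate, and its limma call depended on the settings. The limma call was lost in a window of 1000 bp to each side (log2 ratio 1.37, adjusted p = 0.153), with centring on the median (adjusted p = 0.366) and without either input library (adjusted p = 0.996 and 0.612). The Tcf3 start lay at the other end, with 0 Sox6 reads in both libraries against 16 and 14 input reads (log2 ratio −1.49 ± 1.03, limma, adjusted p = 0.513). It was called lower than input with a pseudocount equal in RPM (log2 ratio −4.12, limma, adjusted p = 0.0267) and without Sox6 replicate 2 (log2 ratio −2.00, limma, adjusted p = 0.0415), and adding 2 reads turned it to 0.38. A count of 0 allows up to 1.005 and 2.04 RPKM there.

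Over the bodies, Sox6 was higher than input on Tcf3 and Id1, 2 of the 9 genes, beside 5.35% of all genes. Id1 held 5 Sox6 reads in each library, or 1.44 and 2.93 RPKM, against 0.432 and 0.355 RPKM of input (log2 ratio 2.46 ± 0.62, limma, adjusted p = 0.0461). Tcf3 held 63 and 40 reads, or 0.874 and 1.13 RPKM, against 0.600 and 0.588 RPKM (log2 ratio 0.76 ± 0.18, limma, adjusted p = 0.0404). Neither limma call held with a pseudocount equal in RPM (log2 ratio 2.30, adjusted p = 0.115 for Id1, and 0.74, adjusted p = 0.101 for Tcf3) or with centring (adjusted p = 0.0612 and 0.0919). Both limma calls were also lost without either input library (adjusted p = 0.422 and 0.276 for Id1, 0.371 and 0.215 for Tcf3), and that of Id1 with repeated positions counted once (adjusted p = 0.0541). Pol II was also high on both genes, and its part in these Sox6 values was not tested. The long genes with Sox6 peaks were not called for Sox6 over the body. Tcf4 had 0.775 and 0.843 RPKM of Sox6 against 0.790 and 0.723 of input, and Tcf12 had 0.702 and 0.748 against 0.871 and 0.770.

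A list of 24 other genes held bHLH genes, E-box repressors and Mdfi, which is neither. Pol II over the body was higher than input on 15 of the 24 and lower on 3. The median log2 ratio of the 24 was 1.33. Over all 21011 genes tested, 8186 were higher and 5119 lower, with a median of 0.17. The 4 with the largest ratios were Myog at 6.35 ± 0.20, Myod1 at 5.77 ± 0.20, Hes6 at 4.83 ± 0.40 and Scx at 4.45 ± 0.37. Myod1 and Myog, the genes of MyoD and myogenin, held 33.0 and 33.7 RPKM and 53.6 and 59.1 RPKM of Pol II, so each was above the highest value of any of the 9 genes, 7.18 RPKM on Id1. Sox6 over the body exceeded input on 3 of the 24, beside 5.35% of all genes. A common Sox6 peak lay in or within 20 kb of 4.33% of all genes, and on this list of Zeb1, with 2, and Zeb2, with 1. These are zinc finger and homeodomain repressors that bind E-boxes, and Pol II over their bodies was 1.29 ± 0.07 and 1.14 ± 0.08 above input on the log2 scale.

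Myotube genes had strong Pol II and genes of other cell types mostly did not. All 10 myotube markers were higher than input over the body, with medians of 40.8 and 44.5 RPKM. Of 16 markers of fibroblasts, endothelium, leukocytes, Schwann cells and adipocytes, 1 was higher and 9 were lower than input. Over all 21011 genes tested, 8186 were higher and 5119 lower. The fibroblast markers summed to 2.27 and 1.77 RPKM against 3.09 and 2.96 of input, and the endothelial ones to 0.681 and 0.586 against 1.16 and 1.20. The Schwann cell and adipocyte lists also summed to less than input in both Pol II libraries, and the leukocyte list to more, at 7.20 and 8.07 RPKM. The 1 of the 16 markers that was higher was Cd68, a lysosomal gene that cells other than leukocytes also express, at 7.03 and 7.83 RPKM. The inputs held 21973495 and 24249850 reads and the ChIP libraries between 1468604 and 2985437, so that the short windows rest on few ChIP reads.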

How the data were processed

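Sox6 ChIP, Pol II ChIP and input DNA were each sequenced in 2 libraries (single end, Illumina Genome Analyzer II). Per the labels and the study's methods, the authors aligned reads to mm9 with Bowtie 0.12.5, kept those mapping to 1 place, and called peaks with SISSRs. The deposited files hold read positions and peak intervals, with no counts or scores. The members and gene lists were chosen with earlier results of these data known.

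Reads were counted here by their 5′ end, in 1 kb centred on the start and over the longest transcript of the GENCODE vM1 models of 23061 genes matched to RefSeq names, and in 450 bp at peak centres. Regions with at least 10 reads over 4 libraries were fitted with limma 3.58.1 (trend) on log2 RPM (reads per 1000000) after adding 0.5 reads, with Benjamini-Hochberg adjustment over all regions and a threshold of 0.05. All peaks of each replicate were tested on reads of the other, ChIP against input, with the exact binomial test (two-sided) and adjustment over the whole list. The peaks that underlie the common ones had been called in both replicates. The fit was tested on simulated data. A further Sox6 peak region, beside those described, is not reported here. Depth ran from 1468604 to 24249850 reads and set the precision of short windows. Genes named were all members, genes nearer to their peaks, Actb, and the 4 strongest other bHLH genes with those holding common peaks. Alternatives were other windows, filters, pseudocounts, centring, voom weights, a replicate block and leaving out each library. Reads that repeated a position were 2.96% to 7.88% of a library.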

Additional observations from a re-analysis of the deposited data

How the results depend on the processing

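Counts of genes or peaks called at an adjusted p below 0.05 moved by over 1.5 times under some settings. Adding 2 reads in place of 0.5 gave 15623 calls for Pol II at starts (8848 otherwise), 10433 for Sox6 at starts (418), 2911 for Sox6 over bodies (1467) and 959 for Pol II at common peaks (639). Centring each library on its median gave 0, 874, 122 and 184 calls for Sox6 at starts, Sox6 over bodies, Sox6 at common peaks and Pol II at common peaks, with 233 higher and 641 lower over bodies in place of 1125 and 342, and 62 higher and 60 lower for Sox6 at common peaks in place of 1031 and 0. The 0 at starts is by limma, with 2400 starts at an unadjusted p below 0.05. At the peaks this follows from the construction, since the median peak is then set to 0. Without the filter on low reads, Sox6 gave 1480 calls at starts and 2835 over bodies. A pseudocount equal in RPM gave 2104 at starts, of which 1955 were lower than input and 149 higher where all 418 had been higher, and 0 over bodies (limma, with 5207 at an unadjusted p below 0.05, and 1779 calls with voom weights), voom weights 73 at starts, and windows of 1000 and 250 bp on each side 75 and 265. For the remaining settings the cause was not tested. Leaving out 1 library, which leaves a lone sample assumed to vary like the others, gave 6738 to 10026 calls for Pol II at starts, 10056 to 15850 over bodies, 1 to 7030 for Sox6 at starts, 218 to 10538 over bodies, 1009 to 1048 for Sox6 and 316 to 625 for Pol II at common peaks. The lowest counts at starts and over bodies of Sox6 came without an input library and the highest without Sox6 replicate 1. With the deposited interval alone, 902 peaks of replicate 1 and 790 of replicate 2 passed in the other replicate, against 1936 and 1463. The common peaks at these genes numbered 4 within 10 kb and 6 within 50 kb.

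The deviations of libraries with the same number correlated between −0.06 and 0.05, so no shared deviation was seen. The study's methods speak of an input for each ChIP, but no label ties the numbers to a shared culture or day, and pairs were not assumed. With the replicate number as a block (paired fit), Sox6 over bodies gave 4048 calls, and the other counts stayed within 1.5 times (8579 for Pol II at starts, 13553 over bodies, 464 for Sox6 at starts, 1027 for Sox6 and 594 for Pol II at common peaks).

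The values printed for single genes and peaks were followed over the alternatives, with the Sox6 ratios at the starts of Msc, Id1, Id4, Id2 and Id3 kept apart. Of 412 values under an alternative, 356 kept direction and side of the threshold, 23 lost the call, 18 gained it and 15 changed sign. Of those 15, 5 had been called before, and 0 were called after the change of sign. Centring on the median turned Sox6 at the Tcf4 peaks at 71.2, 118, 125 and 360 kb to −0.50, −0.84, −0.14 and −1.11 and at the Msc peak to −0.18, Pol II at 71.2 kb to −0.78 and at the Msc peak to −0.76, Pol II over Id4 to −0.29 and Sox6 over Tcf4 to −0.12. A pseudocount equal in RPM turned Id4 to −0.18, and its Pol II value ran from −0.21 to 0.53 without 1 library. Adding 2 reads turned Twist1 (Pol II) to 1.15, Tcf3 (Sox6, start) to 0.38 and the Tcf4 peak past its end (Pol II) to 0.50, and that peak ran from −2.09 to 0.34 without 1 library. The Sox6 ratios at those starts and over the bodies of Id2, Id3, Id4, Twist1 and Msc are 10 further values that missed the threshold. For these 10, 19 of 119 alternatives changed sign and 11 gained a call.

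Depth limits Id4, Twist1 and Msc, which rest on at most 9 Pol II reads over both libraries, and the main start of Tcf12, with 4.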
